A study of Rattus norvegicus with 9 samples.

Results

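Cytosolic ribosomal proteins are the protein parts of the ribosomes that translate messenger RNA in the cytoplasm. Their genes were taken from a count table of rat dorsal root ganglia, which hold the cell bodies of sensory neurons, wrapped by satellite glia, on the nerve roots. A gene was taken where its symbol has the systematic form of a large subunit (Rpl) or small subunit (Rps) protein, its type is protein coding and it reached 1 CPM (counts scaled to a common library total) in at least 3 libraries. This gave 64 of the 30446 genes in the table, 38 of the large and 26 of the small subunit. They include 61 of the 80 standard ribosome components and 3 paralogues, Rpl10l, Rpl36al and Rps27l. Counts of several identifiers were summed for 10 of the 64, and the other 54 rest on 1 identifier.

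The 9 libraries came from male Sprague-Dawley rats and form 3 groups of 3: rats with a spinal cord injury (SCI), sham-operated rats and naive rats. All are labelled with day 30 after injury, the naive ones included, and lowest thoracic and lumbar ganglia of both sides were combined. The series calls the replicates biological. The level and kind of injury, the sham procedure, the rats' age and any pooling of animals in a library are not known here. Total counts per library ran from 16724878 to 32060538 counts. Of all genes, 16620 passed a filter on low counts and were tested, among them all 64 ribosomal protein genes.

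Ribosomal protein genes are among the most strongly transcribed genes of any cell, and nearly all of their products are needed in equal numbers in each ribosome. In vertebrates their messenger RNAs start with a terminal oligopyrimidine (TOP) tract, a C followed by a run of C and T (U in RNA), through which the mTOR kinase and the RNA-binding protein Larp1 control their translation together. In sensory neurons, ribosomes also work in axons, and some ribosomal protein messengers are carried there.

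The start sequences are shown because the TOP tract is the feature that these genes share and that the member rule did not use. RefSeq promoter sequences (build GRCr8) matched 49 of the 64 genes by symbol. A C at the annotated start followed by at least 4 pyrimidines, read on the transcribed sense strand only since the tract belongs to the RNA, stood at 19 of the 49 starts (38.8%), against 881 of all 33469 promoters (2.63%). A run of at least 8 pyrimidines within 20 bases of the start, on the same strand, was found in 34 of the 49 (69.4%) and in 5199 of all promoters (15.5%). Below are 40 bases before the annotated start and 20 bases from it on, with the pyrimidine run that begins at the start in capitals. The first 4 are the matched genes with the highest log2 change between SCI and naive, the next 2 those with the lowest, and the last 2 encode proteins of the ribosomal stalk.
Rpl31 (chr9:49143071-49143130, plus strand): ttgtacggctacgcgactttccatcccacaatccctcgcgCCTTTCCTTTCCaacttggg
Rps19 (chr1:89608648-89608707, plus strand): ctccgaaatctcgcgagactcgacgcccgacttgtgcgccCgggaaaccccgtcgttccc
Rpl14 (chr8:129163580-129163639, plus strand): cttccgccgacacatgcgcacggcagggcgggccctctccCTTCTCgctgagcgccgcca
Rpl12 (chr3:36661900-36661959, plus strand): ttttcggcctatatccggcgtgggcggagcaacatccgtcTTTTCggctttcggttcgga
Rpl28 (chr1:78083513-78083572, minus strand): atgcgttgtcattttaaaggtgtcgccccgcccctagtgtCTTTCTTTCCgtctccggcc
Rps4x (chrX:71342902-71342961, minus strand): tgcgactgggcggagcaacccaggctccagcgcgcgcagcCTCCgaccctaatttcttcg
Rplp0 (chr12:46718371-46718430, minus strand): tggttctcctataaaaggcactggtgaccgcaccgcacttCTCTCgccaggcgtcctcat
Rplp1 (chr8:71290853-71290912, minus strand): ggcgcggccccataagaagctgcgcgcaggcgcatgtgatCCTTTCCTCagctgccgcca

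Of these 8 runs the longest, 12 bases, stands at Rpl31 and the next, 10 bases, at Rpl28, which have the highest and the lowest log2 change between SCI and naive of the 64 genes. Among the 49 genes, the 19 with a tract at the annotated start had a median log2 change of 0.60 between SCI and naive and the other 30 had 0.56. Annotated starts can lie some bases away from the start used in the ganglion, so a start without the run says only that these letters are not in that place.

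Summed over the 64 genes, ribosomal protein messengers were higher in SCI and sham ganglia than in naive ganglia, and the sham libraries were far apart from each other. The sum was 19150, 18323 and 19313 CPM in SCI 1 to 3, against 15321, 18931 and 23868 CPM in sham 1 to 3 and 12648, 12446 and 12564 CPM in naive 1 to 3. Every SCI and sham library lay above every naive library, and the SCI libraries lay between sham 1 and sham 3. The mean was 18929 ± 531 CPM in SCI, 19373 ± 4290 CPM in sham and 12553 ± 101 CPM in naive (SD, n = 3 each), which is 1.51 times the naive mean in SCI and 1.54 times in sham. As a share of all counts, the 64 genes took 1.90% ± 0.0488 in SCI, 1.92% ± 0.455 in sham and 1.26% ± 0.0185 in naive. A larger number of cells rich in these messengers and more of them per cell cannot be told apart in such bulk samples.

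**Figure D1:**
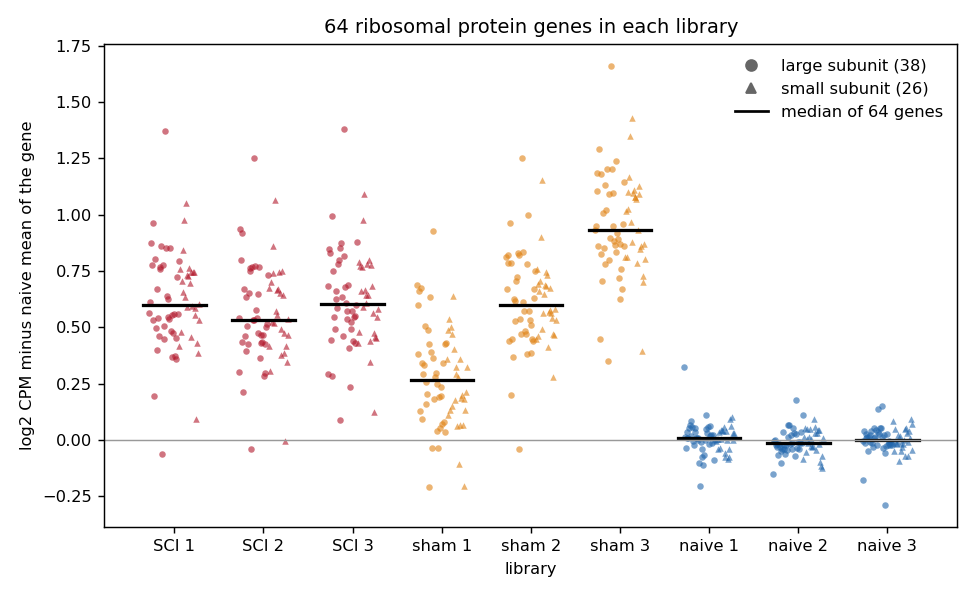
Log2 CPM of each of the 64 genes minus its naive mean, by library; points are genes (circles large, triangles small subunit) and bars the library medians. The medians lie at 0.60, 0.53 and 0.60 in SCI 1 to 3, at 0.27, 0.60 and 0.93 in sham 1 to 3 and near 0 in the naive libraries.

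SCI was set against naive to compare injured rats with rats that had no operation. Nearly all ribosomal protein genes of both subunits were higher in SCI, by about 1.5-fold, and none was lower. In edgeR's quasi-likelihood test with Benjamini-Hochberg adjustment over all genes tested, 60 of the 64 passed an adjusted p of 0.05 as higher and 0 as lower, where 23.9% of all genes tested passed as higher and 24.5% as lower. Among genes with a mean of at least 50 CPM, which include 59 of the 64, 34.2% passed as higher and 28.1% as lower. The median log2 change of the 64 genes was 0.58 with a range of -0.0038 to 1.33, beside 0.011 over all genes tested. In 61 of 64 genes every SCI library lay above every naive library, as it did in 32.3% of all genes tested, and in 0 of 64 every SCI library lay below, against 31.9% of all. No batch is named in the labels, so operation, injury and a batch of the naive libraries cannot be told apart.

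Among large subunit genes, 35 of 38 were called higher in SCI, with a median log2 change of 0.56. Rpl31, a small protein at the exit of the tunnel through which the new protein leaves, stood at 159, 147 and 160.3 CPM in SCI 1 to 3, against 53.4, 64.4 and 67.7 CPM in naive 1 to 3. The groups did not overlap, and its change was the largest of the 64 genes (log2 change 1.33, SE 0.14, edgeR adjusted p = 1.17e-05). Rpl14 and Rpl12, a member of the stalk base where elongation factors bind, followed with log2 changes of 0.96 (SE 0.12) and 0.89 (SE 0.11). Rpl13 and Rpl29, which have no bacterial counterparts, had log2 changes of 0.80 (SE 0.09) and 0.81 (SE 0.10). These 5 genes had the smallest p of the 64, with edgeR adjusted p of 3.50e-05 or below.

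The stalk, which recruits the elongation factors, is built on Rplp0 and carries Rplp1 and Rplp2. Rplp0 stood at 808, 784 and 829.5 CPM in SCI 1 to 3, against 556, 542.5 and 545 CPM in naive 1 to 3, and rose 1.47-fold (edgeR adjusted p = 0.000333). Rplp1 averaged 499.8 ± 25.7 CPM in SCI and 287 ± 20.6 CPM in naive and rose 1.74-fold (edgeR adjusted p = 0.000335). Rplp2 is listed at 0 in all 9 libraries, as are Rpl7a, Rpl8, Rpl10a, Rpl23a and Rps6. Since these proteins are part of every ribosome, their zeros say nothing about their level, and no value is given for them.

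Rpl5 and Rpl11 form a particle with the smallest RNA of the large subunit, and the free particle is known to restrain Mdm2 when ribosome assembly fails. Rpl11 averaged 283 ± 13.6 CPM in SCI and 185 ± 1.34 CPM in naive, a log2 change of 0.61 with an SE of 0.11 (edgeR adjusted p = 0.000496). Rpl5 averaged 429 ± 23.1 CPM in SCI and 333 ± 12.9 CPM in naive, a log2 change of 0.37 with an SE of 0.11 (edgeR adjusted p = 0.0145), and its call was lost without SCI 3 (adjusted p = 0.0589), naive 2 (0.0531) or naive 3 (0.0516). Rpl41, the shortest ribosomal protein, averaged 562 ± 22.8 CPM in SCI and 389 ± 6.62 CPM in naive, a 1.45-fold rise. Rpl13a, which is known for silencing inflammatory messengers when it leaves the ribosome, rose 1.39-fold, and Rpl24, at the contact between the subunits, rose 1.41-fold. Rpl3, Rpl4 and Rpl39, which lie at the active centre or line the exit tunnel, rose 1.47-fold, 1.39-fold and 1.41-fold. Rpl26 rose 1.66-fold.

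Among small subunit genes, 25 of 26 were called higher in SCI, with a median log2 change of 0.61. Rps19, the gene most often mutated in Diamond-Blackfan anaemia in humans, stood at 20.01, 20.2 and 20.5 CPM in SCI 1 to 3, against 9.91, 9.94 and 8.99 CPM in naive 1 to 3. The SCI and naive values did not overlap, and Rps19 had the largest change of its subunit (log2 change 1.07, SE 0.15, edgeR adjusted p = 8.28e-05). Rpsa, also known as the laminin receptor, averaged 619 ± 11.3 CPM in SCI and 423 ± 11.3 CPM in naive (1.46-fold), and Rps3, a protein of the messenger RNA entry channel that also takes part in DNA repair, rose 1.46-fold as well. Rps27a, made as a fusion with ubiquitin, averaged 234 ± 9.04 CPM in SCI and 178 ± 7.45 CPM in naive, a log2 change of 0.39 with an SE of 0.15 (edgeR adjusted p = 0.0479). Rps27a did not pass with library totals as the only scaling (edgeR adjusted p = 0.0613), with a strict filter (0.0566) or without sham 2 (0.0707). Nor did it pass in any fit that left out an SCI or a naive library (adjusted p 0.0834 to 0.137). The main fit estimated the spread over all groups, and Rps27a had an SD of 70.6 CPM in sham. A separate row named Rps27a-ps1, which the rule does not take, stood at 152, 131 and 131 CPM in SCI 1 to 3. In naive 1 to 3 it stood at 80.8, 69.2 and 71.6 CPM (log2 change 0.91, edgeR adjusted p = 5.30e-05).

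Of the 64 genes, 27 encode proteins with bacterial counterparts and 33 encode proteins specific to eukaryotes and archaea or to eukaryotes alone. Of the first kind 27 were called higher in SCI than in naive (median log2 change 0.60), and of the second 30 (median 0.54). Rps27l, a paralogue of Rps27, took 13.2%, 13.1% and 11.6% of the pair's CPM in SCI 1 to 3 and 14.9%, 13.5% and 14.8% in naive 1 to 3. Both genes were called higher, with log2 changes of 0.51 (SE 0.15) for Rps27l and 0.73 (SE 0.14) for Rps27, but Rps27l did not pass without SCI 1 (edgeR adjusted p = 0.0579). Rpl36al, a paralogue of Rpl36a, averaged 107 ± 2.70 CPM in SCI and 74.7 ± 3.12 CPM in naive (1.43-fold, edgeR adjusted p = 0.00921). Counts of such near-identical copies, and of processed pseudogenes, can be split between loci by the authors' counting, so single values of this family are uncertain.

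The 4 genes that did not pass between SCI and naive were Rpl28, Rps4x, Rpl10l and Rpl38. Rpl28, a protein on the surface of the large subunit specific to eukaryotes, stood at 157, 159 and 174 CPM in SCI 1 to 3, against 165, 161 and 166 CPM in naive 1 to 3, so that the groups overlapped. Its log2 change was -0.0038 with a 95% interval of -0.24 to 0.23, which leaves out the median change of the 64 genes. Rps4x, the X-linked copy of a small subunit protein, averaged 18.1 ± 0.819 CPM in SCI and 17.2 ± 1.03 CPM in naive (log2 change 0.072, SE 0.12). Rpl10l and Rpl38 just met the level that defines the 64 genes, with 1.27 to 1.55 CPM and 0.954 to 1.13 CPM in SCI, against 0.896 to 1.30 CPM and 0.640 to 0.915 CPM in naive. Rpl38 met it only through SCI and sham libraries, so its place among the 61 genes without overlap partly follows from the rule. Without naive 1, Rpl10l passed (log2 change 0.61, edgeR adjusted p = 0.0472). Just outside that level lay Rpl3l, the striated muscle paralogue of Rpl3, with at most 0.744 CPM before TMM scaling. At such levels counting error is large, and the low values of Rpl38, and likewise of Rps4x and Rps19, may not give their true abundance, since all encode parts of every ribosome.

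**Figure D2:**
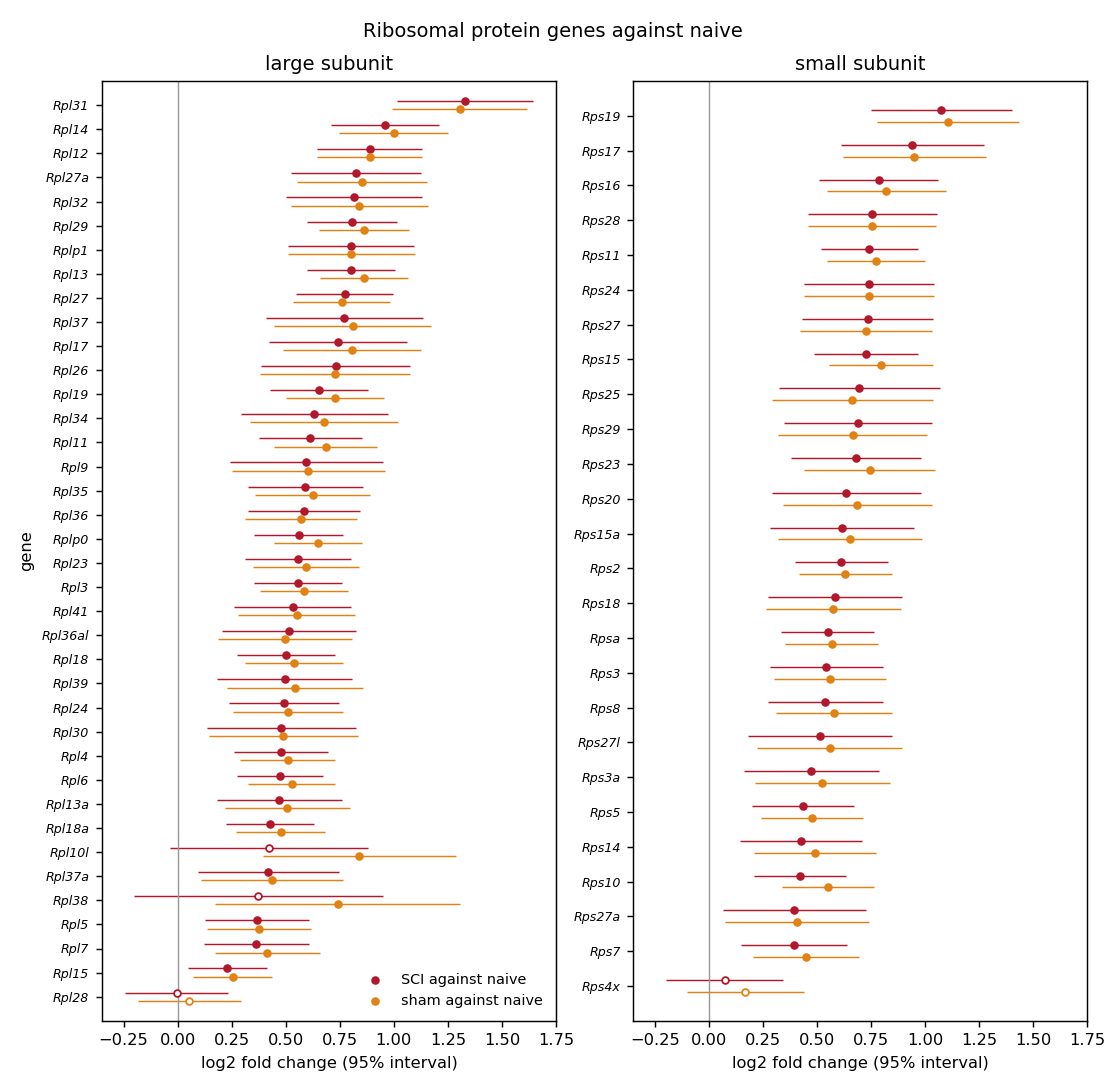
Log2 fold change of each gene with its 95% interval against naive, for SCI (red, upper) and sham (orange, lower), large subunit left and small subunit right; filled points passed an edgeR adjusted p of 0.05 and open points did not. Rpl31 and Rps19 lie highest in their subunits, and Rpl28 and Rps4x lie lowest, with open points in both comparisons.

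Sham was set against naive to see which differences were present without a cord injury. It shares its naive libraries with the comparison above, so both sets of values are given side by side and their likeness is not a result. Of the 64 genes, 62 were called higher in sham and 0 lower by edgeR, where 24.9% of all genes tested passed as higher and 25.6% as lower, and 36.6% and 27.7% of those with at least 50 CPM. The median log2 change was 0.63, with a range of 0.053 to 1.30, beside 0.0040 over all genes tested. By subunit, 37 of 38 large and 25 of 26 small subunit genes were called. In 55 of 64 genes every sham library lay above every naive library, as it did in 27.8% of all genes tested, and in 0 of 64 every sham library lay below, against 29.1% of all. The p-values and SE rest on 1 spread estimated over all 3 groups. The median SD of log2 CPM of the 64 genes was 0.34 in sham and 0.049 in naive. The p-values and SE of sham against naive thus do not measure the spread of the sham libraries alone.

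Rpl31 stood at 117, 147 and 195 CPM in sham 1 to 3 (log2 change against naive 1.30, SE 0.15, edgeR adjusted p = 1.06e-05). Rpl14 stood at 363, 444 and 557 CPM in sham 1 to 3, against 229.0, 225 and 229 CPM in naive 1 to 3, with no overlap. The genes with the smallest p were those named above, Rpl13, Rpl31, Rpl29, Rpl14 and Rpl12, with edgeR adjusted p of 2.86e-05 or below. Rps19 averaged 20.8 ± 5.52 CPM in sham and 9.61 ± 0.536 CPM in naive, a 2.15-fold rise.

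Rpl28 and Rps4x did not pass in sham either, with 170.2 ± 34.8 CPM and 19.5 ± 4.03 CPM in sham, against 164 ± 2.18 CPM and 17.2 ± 1.03 CPM in naive. Without sham 1, Rps4x passed with a log2 change of 0.33 (edgeR adjusted p = 0.00539). Rpl10l and Rpl38 passed, with log2 changes of 0.84 (edgeR adjusted p = 0.00433) and 0.74 (0.0310), but Rpl38 did not pass in DESeq2 (0.0605), at equal depth (0.155) or with any of 4 libraries left out (0.0524 to 0.117). Rpl38 met the 1 CPM rule only through SCI and sham libraries, and Rpl10l lay below 1 CPM in naive 2 and naive 3. Their calls thus partly follow from the rule, and the 62 genes called and the 55 without overlap include both. Rps27a had a log2 change of 0.41 (edgeR adjusted p = 0.0409), which did not pass in several alternatives, among them limma-voom (0.0614) and the fit without sham 3 (log2 change 0.17, adjusted p = 0.191). Over the 64 genes, the median log2 change was 0.76 without sham 1 with 63 genes called, 0.63 without sham 2 with 58 called and 0.42 without sham 3 with 57 called.

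**Figure D3:**
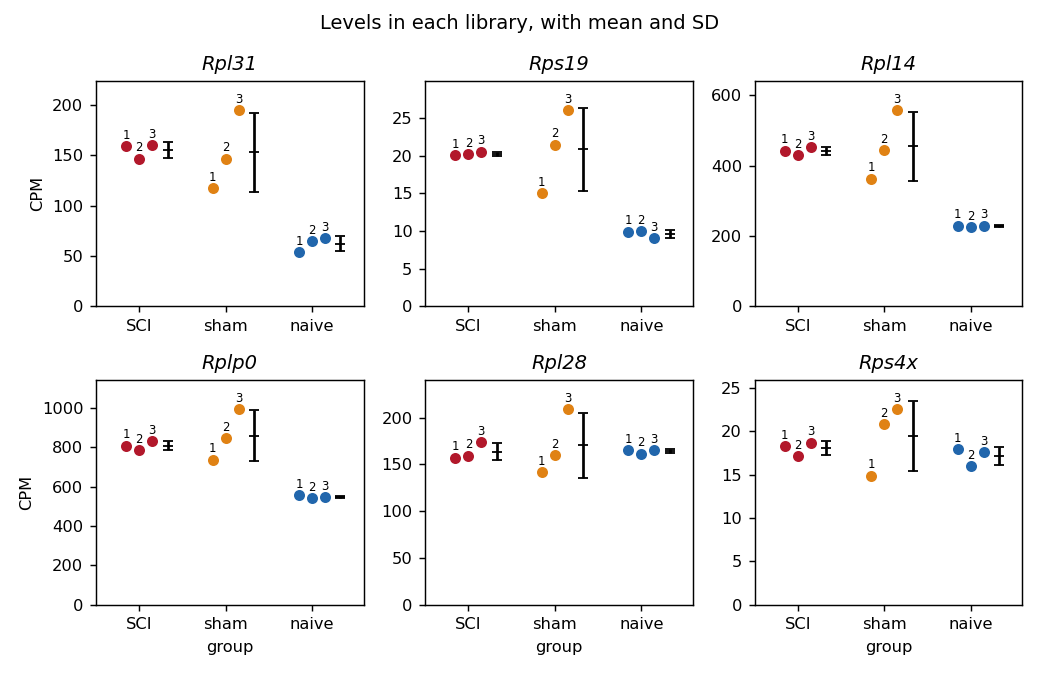
CPM of 6 genes in each library, with library numbers beside the points and bars for the mean and SD (n = 3); each axis starts at 0. Rpl31, Rps19, Rpl14 and Rplp0 lie higher in every SCI and sham library than in any naive library, while the groups overlap for Rpl28 and Rps4x, and sham 1 is the lowest and sham 3 the highest sham library in all 6.

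SCI was set against sham to compare operated rats with and without a cord injury. No ribosomal protein gene passed: edgeR called 0 of 64, as did DESeq2 and limma-voom, where edgeR called 0% of all 16620 genes tested. At an unadjusted p under 0.05 there were 0 of the 64 genes in each of the 3 tools and 532 of all genes tested in edgeR. The median log2 change of the 64 genes was -0.034, beside -0.0045 over all genes tested, with 54 negative and 10 positive. The 95% intervals of all 64 genes included 0, and 62 of them lay within a 1.5-fold change either way. The other 2 were Rpl10l (-0.86 to 0.025) and Rpl38 (-0.93 to 0.20), both at about 1 to 2 CPM. These intervals rest on 1 spread estimated over all 3 groups. The median SD of log2 CPM of the 64 genes was 0.34 in sham, 0.059 in SCI and 0.049 in naive. The intervals thus do not give the spread of the sham libraries alone and do not show that SCI and sham were equal.

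The 5 genes with the smallest p between SCI and sham were Rpl10l, Rpl38, Rps10, Rplp0 and Rps4x, none of which passed. Rpl10l, known in mammals mainly from the testis, stood at 1.55, 1.28 and 1.27 CPM in SCI 1 to 3, against 1.70, 1.85 and 2.03 CPM in sham 1 to 3. Every SCI value was below every sham value in this 1 gene of the 64, as in 3.38% of all genes tested, and above in 0 of 64, against 3.2% of all. Its log2 change was -0.42 with an SE of 0.20 (edgeR adjusted p = 0.9997). Rps10 stood at 123, 123 and 124 CPM in SCI 1 to 3, against 118, 126 and 162 CPM in sham 1 to 3 (log2 change -0.13, SE 0.10). Rplp0, with 737, 847 and 994 CPM in sham 1 to 3, had a log2 change of -0.090 (SE 0.09), Rps4x -0.096 (SE 0.13) and Rpl38 -0.37 (SE 0.26).

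The sham libraries were spread in 1 order over nearly the whole family. In 63 of the 64 genes sham 1 was the lowest and sham 3 the highest sham library, as in 24.3% of all genes tested. In 63 genes sham 1 lay below every SCI library, and in 64 genes sham 3 lay above every SCI library. Sham 2 lay within the range of the 3 SCI libraries in 39 genes, above it in 11 and below it in 14. For these positions of single sham libraries against SCI, no share over all genes tested was taken, so the counts are description only. Sham 3 minus sham 1 had a median of 0.67 on the log2 scale (1.59-fold), with a range of 0.25 in Rpl10l to 1.01 in Rps25, while the quartiles over all genes tested were -0.21 and 0.27. The median difference between SCI and naive was 0.58.

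The SD of log2 CPM between libraries had a median over the 64 genes of 0.059 in SCI, 0.34 in sham and 0.049 in naive. Over all genes tested with a mean of at least 50 CPM, the median SD was 0.053 in SCI, 0.13 in sham and 0.047 in naive. Ribosomal protein genes were thus as steady as other well-measured genes in SCI and naive, and their SD in sham was above that of those genes. The summed counts of the 64 genes ran from 316606 to 618190 per library and give the sum a counting error of 0.127% to 0.178%, which covers counting alone and not the spread between animals or preparations.

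Leaving out single sham libraries moved the comparison of SCI with sham to either side of 0. Without sham 1, all 64 genes had a negative log2 change, with a median of -0.18, and 33 had an unadjusted p under 0.05. Without sham 3, 62 had a positive and 2 a negative log2 change, with a median of 0.17, and 25 had an unadjusted p under 0.05. The share of all genes tested with such a p in these fits is not given here. The counts of 33 and 25 therefore cannot be read as particular to the family. Without sham 2 the median was -0.041, with 59 negative. In none of these fits did a gene pass an adjusted p of 0.05, and the smallest was 0.182, without sham 3.

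**Figure D4:**
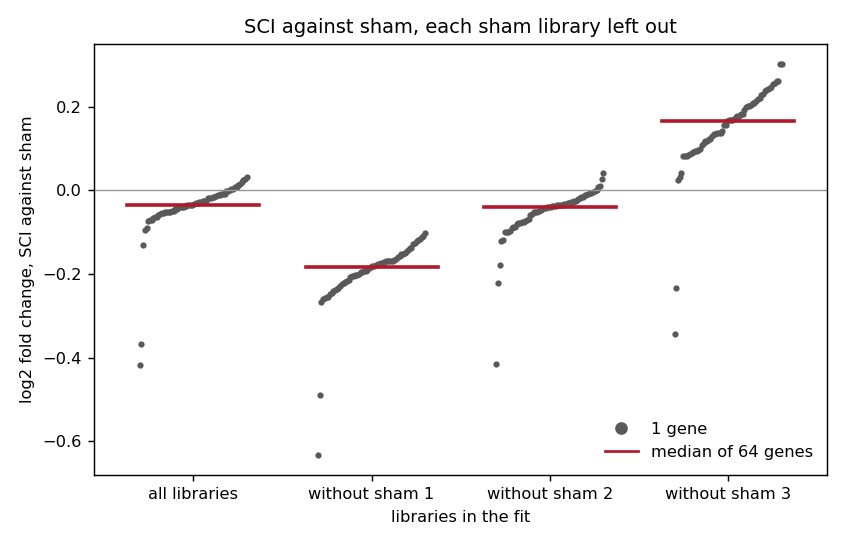
Log2 fold change of SCI against sham for the 64 genes, with all libraries and with each sham library left out; points are genes in order of size and bars are medians. The medians lie at -0.034 with all libraries, -0.18 without sham 1, -0.041 without sham 2 and 0.17 without sham 3.

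Some cell type marker lists followed the order of the sham libraries and others did not. Summed over each list, 6 fibroblast genes stood at 1931, 2692 and 3272 CPM in sham 1 to 3, 6 macrophage genes at 104, 129.8 and 165 CPM and 8 lymphocyte genes at 30.5, 40.7 and 45.9 CPM, and 6 Schwann cell genes at 17410, 19176 and 21486 CPM, while 10 sensory neuron genes stood at 19912, 15936 and 14193 CPM. The other lists had another order, with satellite glia genes at 6898, 6895 and 8899 CPM in sham 1 to 3, erythroid genes at 328, 494 and 419.9 CPM, dividing cell genes at 12.9, 18.3 and 14.2 CPM and skeletal muscle genes at 112, 117 and 99.9 CPM. The ganglion label fits the sensory neuron list, which had no member at 0 and ran from 15327 to 16246 CPM in SCI and from 14493 to 15271 CPM in naive. Between SCI and naive, fibroblast genes ran from 2196 to 2760 CPM in SCI, against 3713 to 4324 CPM in naive, Schwann cell genes from 18714 to 22842 CPM, against 29488 to 31074 CPM, and dividing cell genes from 14.2 to 15.9 CPM, against 19.3 to 26.6 CPM. Satellite glia genes were higher, with 6698 to 7841 CPM in SCI and 4037 to 4100 CPM in naive, and lymphocyte genes as well, with 36.8 to 38.4 CPM in SCI and 23.1 to 28.3 CPM in naive. Macrophage genes, at 128 to 135 CPM in SCI and 105 to 119.7 CPM in naive, were also higher in SCI without overlap. So were the sensory neuron genes, whose lowest SCI value of 15327 CPM lay narrowly above the highest naive value of 15271 CPM. The groups overlapped in erythroid genes, at 379 to 786 CPM in SCI and 625 to 875 CPM in naive. They also overlapped in skeletal muscle genes, at 47.8 to 73.1 CPM in SCI and 48.1 to 79.8 CPM in naive. Against the same naive ranges, the sham libraries did not overlap with naive in satellite glia, lymphocyte and skeletal muscle genes, which were higher in sham, or in fibroblast, Schwann cell, erythroid and dividing cell genes, which were lower in sham, and overlapped in macrophage and sensory neuron genes. No marker of any list was at 0. The part of cell makeup in the ribosomal protein values was not tested.

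Other genes of translation were set beside the family from lists. Their counts stand against the shares over all genes tested, 23.9% higher and 24.5% lower in SCI than in naive and 24.9% higher and 25.6% lower in sham than in naive, and among genes with at least 50 CPM 34.2% and 28.1% in SCI and 36.6% and 27.7% in sham. Elongation factors carry transfer RNAs to the ribosome and move it along the messenger. Of 9 genes on a list named for them, 7 were called higher and 0 lower in SCI than in naive (median log2 change 0.34). In sham 8 were called higher and 0 lower. The 2 not called in SCI were Eef1e1 and Eef2k (edgeR adjusted p = 0.394 and 0.908), which are not elongation factors themselves. Eef1e1 is among the 8 called in sham (log2 change 0.18, edgeR adjusted p = 0.0469). Eef1g, of the complex that recharges elongation factor 1, averaged 697 ± 29.1 CPM in SCI and 459.9 ± 12.2 CPM in naive, with a log2 change of 0.60 and an SE of 0.07 (edgeR adjusted p = 2.57e-05). Eef2, which drives translocation, had a log2 change of 0.34 (SE 0.07, edgeR adjusted p = 0.00184).

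Of 14 further genes known for TOP messengers, 8 were called higher and 1 lower in both comparisons with naive, with medians of 0.40 in SCI and 0.41 in sham, where 23.9% and 24.9% of all genes tested were higher (34.2% and 36.6% at 50 CPM or more). Rack1, a signalling scaffold on the small subunit whose symbol the rule does not take, had a log2 change of 0.42 (SE 0.08, edgeR adjusted p = 0.00105). The gene that was lower was Pabpc1, the poly(A)-binding protein, with a log2 change of -0.33 (SE 0.08, edgeR adjusted p = 0.00282). Fau, which encodes a further small subunit protein, is listed at 0 in all libraries.

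Outside the family, 342 tested genes have a C and at least 4 pyrimidines at their annotated start, and 24.6% of them were called higher in SCI than in naive (median log2 change 0.025), beside 24.98% of 10865 tested genes whose start lacks it (median 0.018).

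Lists of genes that build or regulate ribosomes held calls in both directions. Over all genes tested, 23.9% were higher and 24.5% lower in SCI than in naive, or 34.2% and 28.1% at 50 CPM or more. The lists lay near these shares, except that the ribosome biogenesis genes held fewer lower calls. Of 43 ribosome biogenesis genes, 14 were called higher and 6 lower in SCI than in naive (median log2 change 0.071), and of 31 initiation factor genes 8 and 7 (median -0.025). The initiation factor genes Eif3e, Eif3f, Eif3h and Eif4b stood on the list of TOP messengers instead. Of these, Eif3f, Eif3h and Eif4b were called higher in SCI (log2 changes of 0.60, 0.48 and 0.38), and Eif3e was not called (-0.17). Of 25 genes of mTOR signalling and its TOP targets, 8 were higher and 6 lower (median 0.052). Within this last list, Mtor averaged 58.2 ± 1.752 CPM in SCI and 94.2 ± 2.15 CPM in naive, with a log2 change of -0.69 and an SE of 0.06 (edgeR adjusted p = 2.02e-06), and Rictor, a scaffold of the second mTOR complex, had a log2 change of -1.14. Larp1, which binds TOP messengers, had -0.050 (SE 0.08) and did not pass. Mlst8, a subunit of both mTOR complexes, had 0.45 (SE 0.07) and Rps6kb2, a kinase of a small subunit protein, 0.48 (SE 0.11), and both passed.

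Mitochondrial ribosomal proteins, the most similar family in function, were higher as well, with 57 of 70 genes called higher and 1 lower in SCI than in naive (median log2 change 0.35), and 57 and 0 in sham (median 0.41), where 23.9% of all genes tested were higher in SCI and 24.9% in sham. Genes with very long coding sequences lay on the other side, with 43 of 44 called lower in SCI than in naive (median -1.10) and 42 of 44 in sham (median -1.15), where 24.5% and 25.6% of all genes tested were lower. Message length was not measured over all genes, and its part in these values was not tested.

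The order of the sham libraries was compared over the same lists. Sham 3 minus sham 1 had a median of 0.10 on the log2 scale in the 70 mitochondrial ribosomal protein genes. This median was 0.11 in the 9 genes of the elongation factor list, 0.27 in the 14 TOP genes and 0.033 in the biogenesis genes. It was -0.013 in the initiation factors, -0.012 in the mTOR genes and 0.091 in the 44 very long genes. In the 64 cytosolic ribosomal protein genes it was 0.67. The very long genes lay at -1.15, -1.22 and -1.12 relative to naive in sham 1 to 3, where the ribosomal protein genes lay at 0.27, 0.60 and 0.93. Rack1 stood at 313, 347 and 401 CPM in sham 1 to 3, with sham 1 lowest and sham 3 highest.

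**Figure D5:**
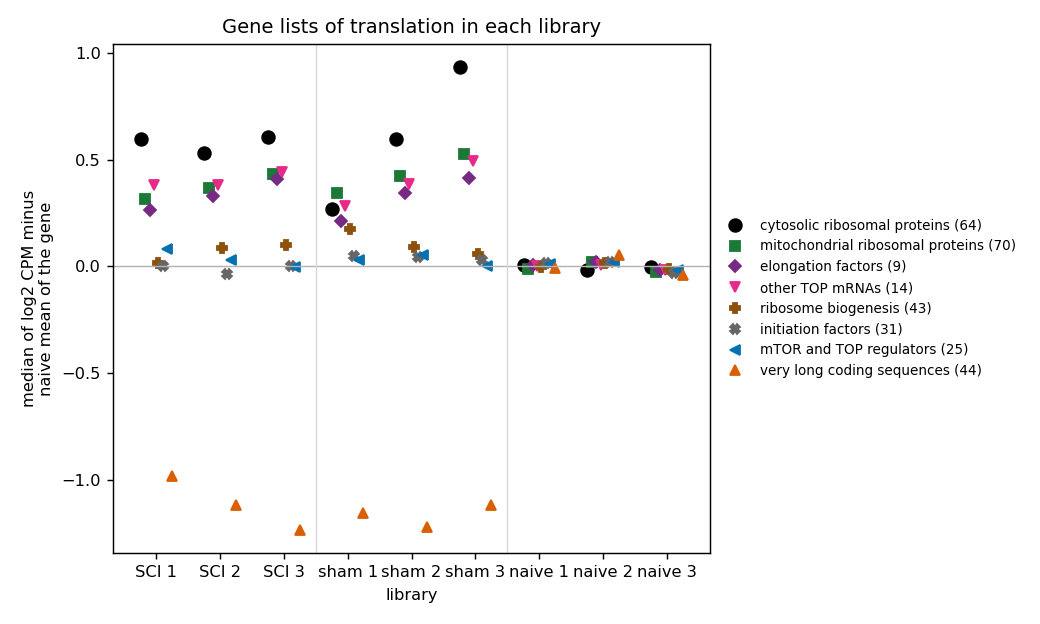
Median over each gene list of log2 CPM minus the gene's naive mean, by library; the number of genes stands in the legend and points are shifted sideways for legibility. The cytosolic ribosomal protein genes lie at 0.27 in sham 1 and 0.93 in sham 3, while the genes with very long coding sequences lie between -0.98 and -1.23 in all SCI and sham libraries.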

How the data were processed

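The authors deposited 1 table of raw read counts per gene. The tools named per the submitters' processing notes are TopHat2, HTSeq, DESeq2, Trimmomatic and FastQC. No version, genome build or annotation is given in the sources used here. Per the labels' protocols, libraries were made with a TruSeq kit that does not mark strand, so overlapping antisense genes cannot be told apart. All count columns were used.

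Rows of a ribosomal protein symbol were summed (81 rows for 64 genes). Differences were tested with edgeR 4.0.16 (R 4.3.3): TMM scaling, the default low-count filter, 1 mean per group, 9 libraries in 1 quasi-likelihood fit with 6 residual degrees of freedom, p-values adjusted by Benjamini-Hochberg over all 16620 genes, called at 0.05. SE is the log2 change over the square root of the test's F. CPM use TMM-scaled totals, and log2 CPM a prior count of 2. The fit was tested on counts simulated with 1 spread for all genes and groups, which does not cover the larger spread of the sham libraries. Alternatives were RLE, upper-quartile and no scaling factors, other filters, DESeq2 1.42.0, limma-voom 3.58.1, a robust spread, only the groups compared, a replicate block, rows kept apart, equal depth, an adjusted p of 0.1, and each library left out. Adding pseudogene-like rows was chosen after seeing the data.

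The genes, lists and tests were chosen with earlier results of these data known. Named genes were, for each comparison with naive, the 5 called higher with the smallest p, those called lower and those not called; the 5 with the smallest p between SCI and sham; the 5 with the highest and lowest CPM; and listed functional members and paralogues. Rps25 was named after its value was seen, and list genes where a result turned on them. Older symbols were matched through RefSeq (GRCr8). Of 51 very long genes 44 were tested. 1 further gene is not reported here.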

Additional observations from a re-analysis of the deposited data

How the results depend on the processing

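Over all alternatives run, the number of ribosomal protein genes called higher was 52 to 60 between SCI and naive and 57 to 63 between sham and naive, and 0 genes were called between SCI and sham in each. With the replicate number as a block, 60, 61 and 0 genes were called. Same-numbered libraries did not pair (correlation of their deviations -0.0944 to 0.124), so the block fit is given only here. At an adjusted p under 0.1 the counts were 60, 62 and 0. The median log2 change stayed between 0.57 and 0.60 for SCI against naive. For sham against naive it ran from 0.59 to 0.64 over the scalings, filters and tools and from 0.42 to 0.76 with 1 library left out. For SCI against sham those ranges were -0.038 to -0.010 and -0.18 to 0.17. The summed level without 1 library ran from 18736 to 19231 CPM in SCI, from 17126 to 21399 CPM in sham and from 12505 to 12606 CPM in naive. Signs turned in genes that passed in neither fit. Between SCI and naive, Rpl28 had log2 changes of 0.013 with upper-quartile scaling, 0.00084 with no filter and -0.052 to 0.028 with 1 library left out. With 1 library left out, Rpl28 ran from -0.12 to 0.16 between sham and naive. Between SCI and sham, Rplp0 then ran from -0.19 to 0.031, Rps10 from -0.22 to 0.024 and Rps4x from -0.27 to 0.042, the ends being the fits without sham 1 and without sham 3. The causes were not tested. No scaling moved the median of all genes by over 0.1. The planned correction for protein length, alone or with the block, was not run, since no lengths were used here. Depth limits Rpl38 and Rpl10l.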
